A study of Mus musculus with 6 samples.

Results

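Ikaros regions over 2 or more genes were studied in natural killer (NK) cells of the mouse spleen. A peak was kept when the authors' table placed it at distance 0 from at least 2 genes of different name, of which at least 1 was protein-coding. Kept peaks that shared at least 1 base across the peak lists of 3 wild-type libraries were merged, which gave 364 regions among the 2526 regions that all peaks formed. The regions held 589 of 4111 peaks, namely 96 of 685 in wild-type replicate 1, 280 of 2084 in replicate 2 and 213 of 1342 in replicate 3. These were 14%, 13.4% and 15.9% of each list.

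The assay was chromatin immunoprecipitation with sequencing (ChIP-seq), in which DNA bound by a protein is pulled down with an antibody and mapped. The wild-type NK cells came from spleen, were grown in IL-15 at 50 ng/ml, and were fixed in 2% formaldehyde before pull-down with 2 µg of an antibody against Ikaros. The series also labels 3 samples as Ikzf1 knockout, which were not analysed here, so the background at these sites without Ikaros was not measured. The labels do not say that the 3 wild-type libraries came from separate animals, and the spread between lists may be technical. The deposited lists hold no reads, and sequencing depth is therefore unknown.

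Ikaros, the product of Ikzf1, is a zinc finger protein of lymphocytes that binds DNA at sites with a GGGAA core and recruits complexes that modify chromatin. Many mammalian genes lie back to back and start from a shared stretch of DNA, a bidirectional promoter, from which transcription leaves in both directions. Other genes overlap because an antisense or other noncoding transcript runs across a protein-coding gene, or because one gene sits inside another. At such sites a ChIP peak cannot by its position be assigned to a single gene.

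The sequences below are promoter windows from regions described in the results, shown as examples of windows with most of their bases under the peaks. Each is a RefSeq window of the build GRCm38.p6, 250 bases before to 50 after a gene start, written 5′ to 3′ on the strand of the gene, with GGGAA, or its complement TTCCC, in capitals. The window of Pus10 is chr11:23665742-23666041 on the plus strand, and 268 of its 300 bases lie inside the region. That of Chmp5 is chr4:40948303-40948602 (plus strand), with all 300 bases inside. That of Tcf19 is chr17:35516775-35517074 (minus strand, 287 bases inside). That of Kmt2a is chr9:44881240-44881539 (minus strand, 278 bases inside). That of Fxr1 is chr3:34019829-34020128 (plus strand, 292 bases inside). That of Klrb1c is chr6:128788592-128788891 (minus strand, all 300 bases inside).
Pus10: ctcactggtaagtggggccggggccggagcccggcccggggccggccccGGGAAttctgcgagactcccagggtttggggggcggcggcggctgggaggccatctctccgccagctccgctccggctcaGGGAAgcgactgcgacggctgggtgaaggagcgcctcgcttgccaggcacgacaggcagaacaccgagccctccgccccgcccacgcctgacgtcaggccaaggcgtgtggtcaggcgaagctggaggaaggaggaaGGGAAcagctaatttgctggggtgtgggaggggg
Chmp5: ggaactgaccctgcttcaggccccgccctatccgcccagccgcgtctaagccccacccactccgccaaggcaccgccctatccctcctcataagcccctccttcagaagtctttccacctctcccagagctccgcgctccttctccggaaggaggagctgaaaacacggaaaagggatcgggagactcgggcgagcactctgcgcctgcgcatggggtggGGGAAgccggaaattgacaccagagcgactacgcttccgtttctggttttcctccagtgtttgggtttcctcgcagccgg
Tcf19: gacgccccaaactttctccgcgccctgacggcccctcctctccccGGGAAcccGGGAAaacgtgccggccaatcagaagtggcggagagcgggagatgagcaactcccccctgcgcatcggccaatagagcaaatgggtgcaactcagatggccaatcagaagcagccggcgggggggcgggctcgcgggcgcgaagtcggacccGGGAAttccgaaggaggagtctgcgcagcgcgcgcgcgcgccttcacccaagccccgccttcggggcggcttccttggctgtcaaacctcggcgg
Kmt2a: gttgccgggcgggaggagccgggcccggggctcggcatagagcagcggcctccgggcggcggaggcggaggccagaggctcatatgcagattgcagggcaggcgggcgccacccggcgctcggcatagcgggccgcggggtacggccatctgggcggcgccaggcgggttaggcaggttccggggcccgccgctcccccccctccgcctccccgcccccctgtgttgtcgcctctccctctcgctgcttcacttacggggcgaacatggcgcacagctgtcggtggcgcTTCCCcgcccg
Fxr1: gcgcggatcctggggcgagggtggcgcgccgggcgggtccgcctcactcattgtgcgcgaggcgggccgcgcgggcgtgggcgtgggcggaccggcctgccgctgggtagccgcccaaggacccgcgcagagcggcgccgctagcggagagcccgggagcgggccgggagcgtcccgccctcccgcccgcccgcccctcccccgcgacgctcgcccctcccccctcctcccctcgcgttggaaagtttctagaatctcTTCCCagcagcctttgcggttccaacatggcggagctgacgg
Klrb1c: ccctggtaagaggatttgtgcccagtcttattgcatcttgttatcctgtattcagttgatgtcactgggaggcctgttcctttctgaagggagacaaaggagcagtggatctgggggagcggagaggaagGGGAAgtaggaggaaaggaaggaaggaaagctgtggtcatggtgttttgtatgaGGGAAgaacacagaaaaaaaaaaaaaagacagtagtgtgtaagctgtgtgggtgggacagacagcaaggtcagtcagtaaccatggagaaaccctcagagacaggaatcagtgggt

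The windows of Pus10 and Tcf19 hold 3 matches of GGGAA each, that of Klrb1c holds 2, and those of Chmp5 and Fxr1 hold 1 each, all inside their regions. The window of Kmt2a holds 1 match, which lies outside the region, so the part under the peak holds 0. The window of Aaas, whose region had fold enrichments of 6.86, 9.08 and 12.5, holds 0 matches. Among other windows not printed, that of Ogg1 (290 bases inside its region) and a window of Hnrnpf (300 bases inside) also hold 0. The GC content runs from 48.0% for Klrb1c to 76.3% for Fxr1. Windows of paired genes share most of their bases, and the Pex13 window also holds 3 matches.

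Of the 364 regions, 88 had a peak of any kind in all lists (24.2%, 95% Clopper-Pearson interval 19.9 to 28.9), against 19.8% of all 2526 regions. A peak in at least 2 lists was present at 181 (49.7%, 44.5 to 55.0), against 42.9% of all regions. For regions over 1 protein-coding gene the shares were 20.0% and 43.8%, and for regions over no gene 17.3% and 36.7%. Intervals describe counting error over regions only. A region joined from several peaks had more chances to touch a further gene, so these shares are a description. Counted only where the peak itself met the rule in each list, 73 regions were common to the 3 lists, 79 were held by exactly 2 and 212 by 1. At 29 of those 212, another list had a peak that overlapped fewer genes. The lists were unequal partners: 81 regions had a peak in exactly replicates 2 and 3, against 5 in exactly replicates 1 and 2 and 7 in exactly replicates 1 and 3.

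Compared within each list, peaks over several genes had a partner in both other lists at a higher share than peaks over 1 protein-coding gene. The margin nearly vanished in replicate 3. A partner was any peak of another list in the same merged region, so merging enters this comparison too. The shares were 80.2% against 72.0% in replicate 1, 30.7% against 24.5% in replicate 2, and 36.6% against 36.4% in replicate 3. The mean difference was 4.89 percentage points (SD 4.19, n = 3 lists), above 0 in all 3 lists, with p = 0.25 in the 2-sided exact sign-flip permutation test. That is the smallest p that 3 lists allow, so no comparison of this design can pass 0.05. The difference did not stay above 0 in every list under the alternatives given in the last section.

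The rank of enrichment at these peaks differed from that at other peaks in no common direction across the lists. The authors' fold enrichment is a linear ratio that belongs to its own list. Its median was 5.19 at peaks over several genes and 5.00 at peaks over 1 protein-coding gene in replicate 1, 4.83 and 4.68 in replicate 2, and 4.80 and 4.94 in replicate 3. As percentiles within a list, 100 being the strongest peak, the medians differed by 6.86, 5.59 and -6.48. The mean difference was 1.99 (SD 7.36, n = 3 lists; exact sign-flip permutation p = 0.75), smaller than the spread between lists. The sign in replicate 3 was opposite to that in the other lists, and without replicate 1 the mean was -0.446. When only peaks of −log10 q 10 and above were kept, the difference was -24.2, -18.1 and -20.9, lower at peaks over several genes in each list (mean -21.1; exact sign-flip permutation p = 0.25). The tenth of peaks with the highest fold enrichment held 8 peaks over several genes in replicate 1, 32 in replicate 2 and 18 in replicate 3, that is 8.33%, 11.4% and 8.45% of them. Their highest fold enrichments were 13.7, 31.5 and 23.1, while the highest of all peaks in the lists were 46.4, 85.2 and 70.7.

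**Figure D1:**
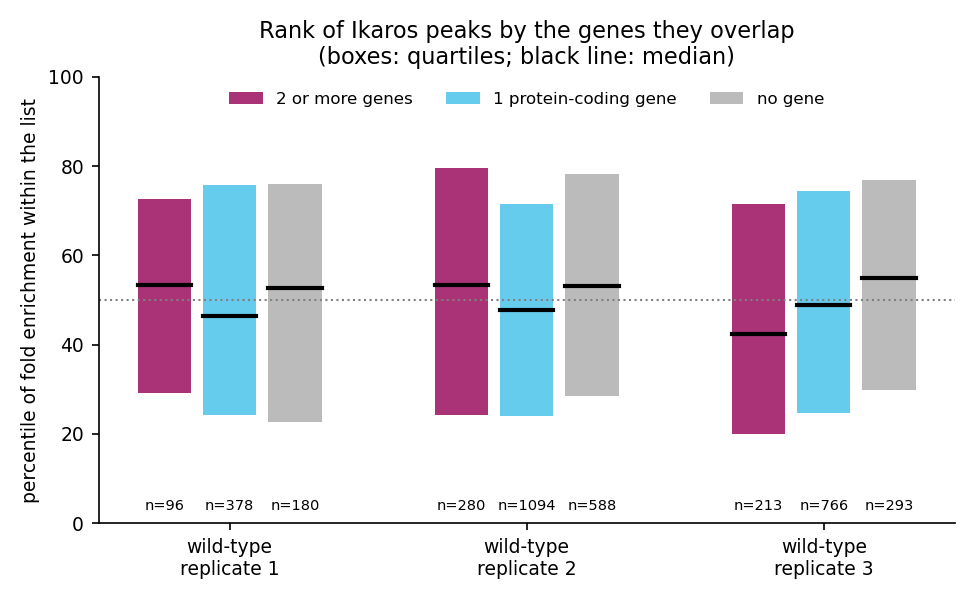
Percentile of fold enrichment within each wild-type list (vertical axis, 0 to 100) for Ikaros peaks over 2 or more genes, over 1 protein-coding gene and over no gene. Boxes span the quartiles and black lines are medians; for peaks over several genes the medians are 53.4, 53.4 and 42.4, and the boxes of all classes overlap widely in every list.

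Median widths of peaks over several genes were larger in all 3 lists. They were 284, 322 and 310 bp, against 278, 294 and 294 bp for peaks over 1 protein-coding gene. The mean difference was 16.7 bp (SD 10.5, n = 3 lists; exact sign-flip permutation p = 0.25). A wider peak can touch more genes, and the part of width in the choice of these peaks was not tested. With peaks ranked within 3 classes of width, the percentile difference was 2.71. When only peaks of −log10 q 5 and above were kept, the width difference was -1.83 bp, and with 10 and above it was -20.3 bp.

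The genes at these regions numbered 747 names, 538 of them protein-coding. At 174 regions (47.8%) at least 2 genes were protein-coding, and at the other 190 a protein-coding gene was joined by noncoding genes alone. The partner was an antisense transcript at 76 regions, a lincRNA (long intergenic noncoding RNA) at 36, a processed transcript at 24 and a TEC gene, a provisional biotype, at 22. A lncRNA annotated as sharing a bidirectional promoter was the partner at 12, and a miRNA at 9. A pair of genes was the rule, with 338 regions over exactly 2 genes, 21 over 3 and 5 over 4 or more. Peaks in all lists were found at 41 of the 174 regions with several coding genes (23.6%) and at 47 of the 190 others (24.7%).

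**Figure D2:**
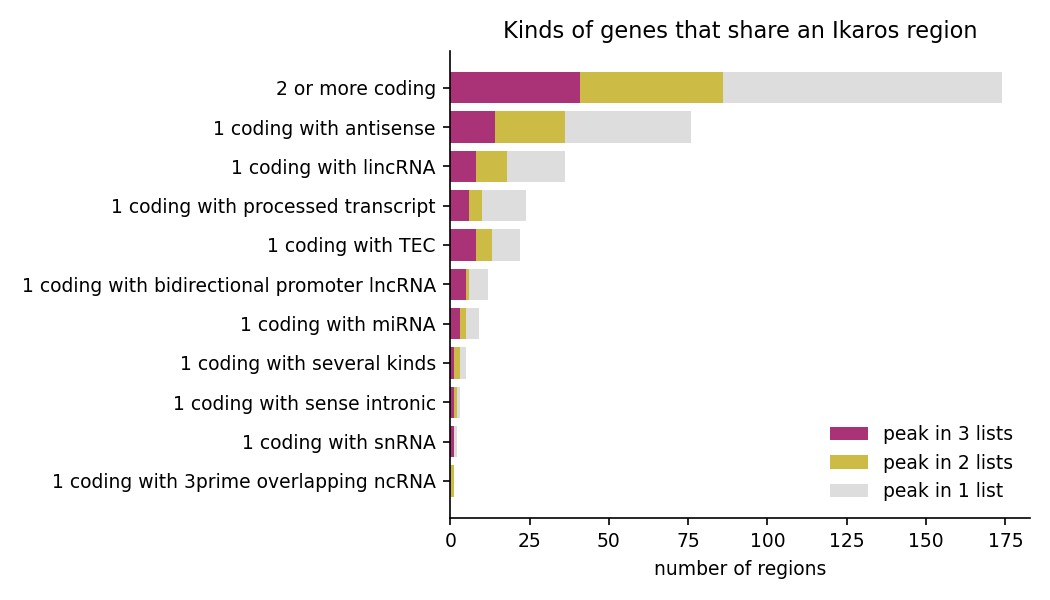
Number of regions (horizontal axis) for each combination of gene biotypes, divided by the number of wild-type lists with a peak. Regions over 2 or more protein-coding genes are the largest class with 174, followed by 76 with an antisense partner; TEC is a provisional biotype and lincRNA a long intergenic noncoding RNA.

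The strand of both genes could be taken from RefSeq for 153 regions over 2 genes. Divergent pairs, which lie head to head by strand and order alone, whatever the distance between starts, made up 115 of them. Of the others, 17 had a gene nested in another on the opposite strand and 4 had one nested on the same strand. A further 10 pairs were tail to tail and 7 ran in the same direction. In the order given, the RefSeq spans of both genes overlapped the region at 87, 16, 3, 5 and 2 of these pairs. The starts of divergent pairs were up to 425810 bp apart. At 93 of the 115 divergent pairs the starts lay within 1 kb of each other, with a median gap of 151 bp (quartiles 70 and 301 bp). The region contained both starts at 63 of these 93 pairs, 1 start at 25 and neither at 5. Its midpoint was a median of 98 bp from the centre of the paired starts (quartiles 43.5 and 196 bp). The midpoint lay between the starts at 40 of the 93 pairs. At 22 pairs the minus-strand start lay to the right of the plus-strand start, and gaps are given without regard to this order. Of the 93, 24 had a peak in all lists and 27 in exactly 2. Median percentiles of the divergent pairs were 48.2, 58.3 and 33.2 in replicates 1, 2 and 3, and those of the 38 regions with other arrangements were 59.2, 65.0 and 74.8. These medians rest on 39, 88 and 76 divergent pairs with a peak and on 14, 32 and 23 other regions. Where no peak of a list met the rule, any peak of that list at the region was used. The difference was not tested.

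**Figure D3:**
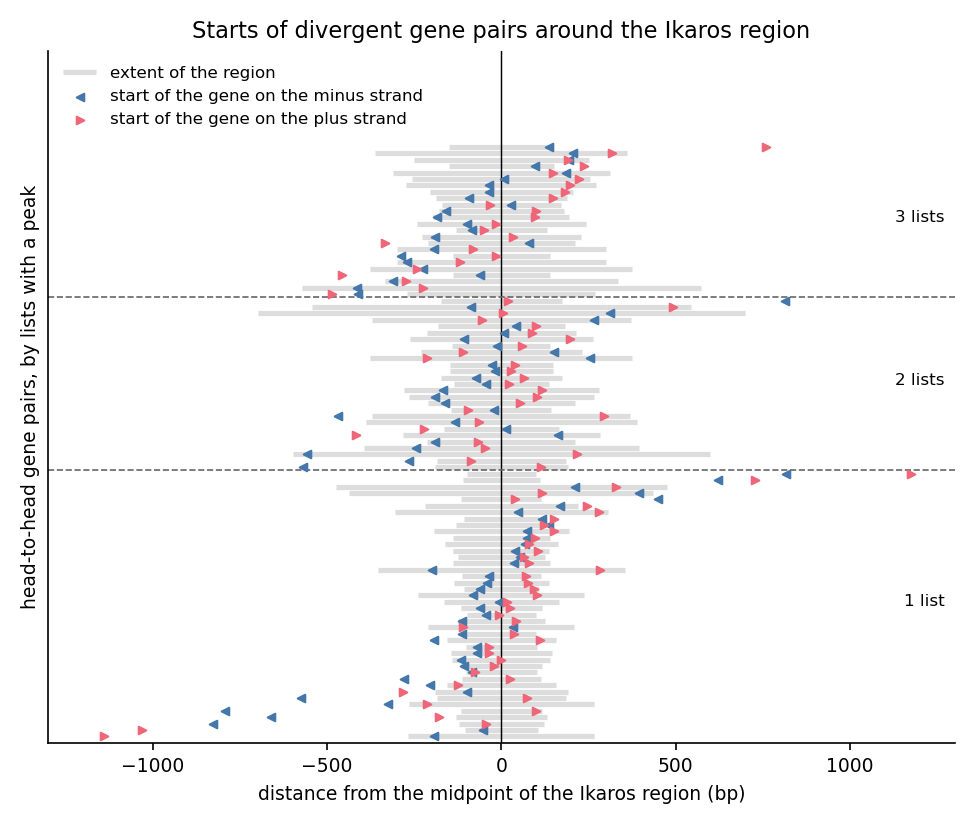
Positions of RefSeq gene starts relative to the midpoint of the Ikaros region (horizontal axis, bp) for the 93 divergent pairs whose starts lie within 1 kb of each other, one pair per row, grouped by the number of wild-type lists with a peak. Grey bars are the regions and triangles point in the direction of transcription; 63 of the 93 regions contain both starts.

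Most of the regions lay near a gene boundary, which is either the start or the end of the gene. The midpoint lay within 1 kb of a boundary of a protein-coding gene at 269 of the 364 regions (73.9%, 69.1 to 78.3). The same held for 55.1% of regions over 1 protein-coding gene and 24.3% of regions over no gene. A region that touches several genes is more often near a boundary by construction, so these differences were given no test. A RefSeq start lay within 500 bp at 71.7% of the regions and at 51.7% of those over 1 protein-coding gene. Among the regions themselves, 108 had no recorded start of their own genes within 500 bp, 158 had 1, 96 had 2 and 2 had 3. The regions were spread over the genome and were 364 of the 2526 Ikaros regions of all chromosomes. There were 38 on chromosome 7 (21.5% of all Ikaros regions there, 15.7 to 28.3) and 27 on chromosome 3 (21.6%, 14.7 to 29.8). Chromosome 4 held 14 (8.09%, 4.49 to 13.2) and the X chromosome 3 (7.14%, 1.5 to 19.5). These chromosomes are named for their high or low shares, and the differences were not tested.

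The divergent pairs with the highest mean percentiles were Pex13 with Pus10 (96.3) and Bag1 with Chmp5 (96.1), whose order depends on the measure, at 95.2 and 96.1 when ranked by −log10 p. Pex13 and Pus10 share chr11:23665774-23666375. Pex13 encodes a membrane protein that docks the import machinery of peroxisomes, and Pus10 a pseudouridine synthase. Fold enrichments were 9.68, 10.5 and 11.1 in replicates 1, 2 and 3, at percentiles 95.3, 96.8 and 96.6. The starts are 109 bp apart and both lie inside the region. Bag1, which encodes a co-chaperone of Hsp70, and Chmp5, which encodes a protein of the ESCRT-III membrane-sorting machinery, start 259 bp apart at chr4:40948275-40948633. Their region had fold enrichments of 8.48, 11.4 and 13. Both pairs were above the 93rd percentile in every list.

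Further divergent pairs had lower mean percentiles. Synj1, the gene of a phosphoinositide phosphatase, and the processed transcript 4930404I05Rik start 59 bp apart, and their region had 7.64, 5.97 and 6.71. The region of Cchcr1, which encodes a centrosomal protein, and Tcf19 (chr17:35516788-35517242) had fold enrichments of 6.48, 9.31 and 7.48, and its peak in replicate 1 overlapped only 1 of these genes. The other pairs named here were picked once their values were known. Hadha and Hadhb, which encode the α and β subunits of the mitochondrial trifunctional protein of fatty acid oxidation, start 273 bp apart, and their region (chr5:30155128-30155407) had 5.40, 7.22 and 4.64. The region of Cep290, a gene of the ciliary transition zone, and Tmtc3 had 5.27, 7.66 and 7.55. That of Elf1, which encodes an ETS family transcription factor, and Wbp4 had 4.95, 5.36 and 4.96. Hspd1 and Hspe1, which encode the mitochondrial chaperonin Hsp60 and its partner Hsp10, start 216 bp apart at a region with 4.21 in replicate 2 and 4.59 in replicate 3 and no peak in replicate 1. The Hadha and Hadhb region reached percentile 90.1 in replicate 2 but 37 in replicate 3, and that of Hspd1 and Hspe1 stayed at 29.4 and 35.4.

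Coding genes with a noncoding partner held several of the highest values. Kmt2a, which encodes a histone H3 lysine 4 methyltransferase, shares its region (chr9:44881262-44881712) with the antisense gene AC061963.1, and fold enrichments were 9.97, 8.45 and 11.2. Fxr1, which encodes an RNA-binding protein of the FMRP family, shares chr3:34019624-34020120 with the lincRNA gene Gm43077, at 7.55, 8.92 and 9.33. Aaas, which encodes the nuclear pore protein aladin, shares chr15:102350598-102350975 with a bidirectional promoter lncRNA, and its values spread from 6.86 in replicate 1 to 12.5 in replicate 3. Ogg1, the gene of the glycosylase that removes 8-oxoguanine from DNA, and the antisense gene Gm15492 had 6.58, 8.93 and 7.11 at chr6:113326681-113327015. Dynlt1, a dynein light chain gene, and the lincRNA gene Gm26848 had 7.02, 8 and 8.46 at chr17:6429904-6430293. All of these regions were above the 85th percentile in every list.

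Among the remaining regions of high rank, Hnrnpul2 and Ttc9c had 5.74, 9.82 and 7.92 at chr19:8819092-8819581, lowest in replicate 1. Gon7, which encodes a subunit of the KEOPS complex of tRNA modification, and Ubr7, a gene of the UBR box family, share chr12:102757566-102758057 with the predicted genes Gm20604 and Gm28051, and values were 7.02, 9.03 and 9.71. Izumo1, a gene of sperm-egg fusion, and Rasip1, a gene of vessel formation, had 7.76, 7.43 and 6.84 at chr7:45628728-45629049.

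**Figure D4:**
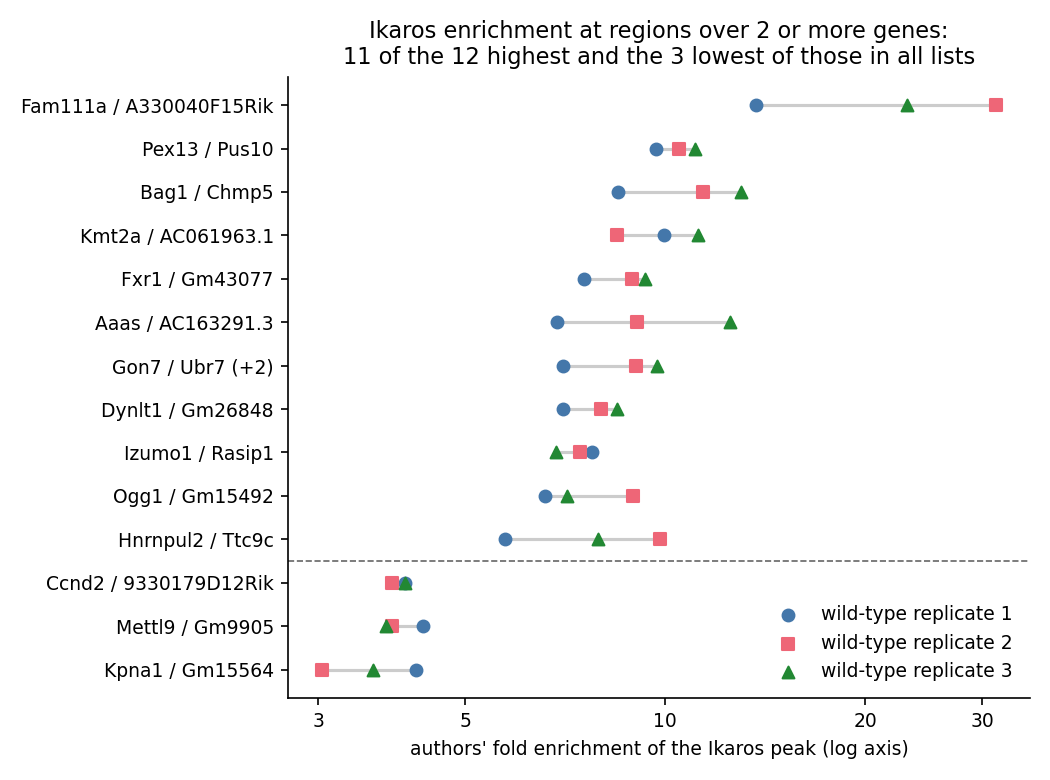
Authors' fold enrichment (horizontal log axis) in the 3 wild-type lists for 11 of the 12 regions with the highest mean percentile and the 3 with the lowest, among regions that met the rule in all lists; the dashed line divides them and grey lines join the lowest and highest list. Fam111a and A330040F15Rik lie furthest right, at 13.7, 31.5 and 23.1, and the lowest 3 regions lie between 3.04 and 4.31.

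The region with the highest enrichment among the 364 is named for Fam111a, which encodes a serine protease, and the processed transcript A330040F15Rik (chr19:12551438-12552154). Fold enrichments were 13.7, 31.5 and 23.1, and replicate 1 was the lowest. In RefSeq the region lies outside both genes, 21.4 kb from the span of Fam111a and 33.7 kb from that of A330040F15Rik. Its place among the regions over several genes thus rests on the authors' annotation. The RefSeq span of Izumo1 lies 1.49 kb from its region. Of the 12 regions with the highest mean percentile, 7 had at least 2 genes matched to RefSeq, and the spans of at least 2 genes overlapped 5 regions. A start lay within 500 bp at 9 of the 12.

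The same check over all regions found at least 2 genes matched to RefSeq at 234, and at least 2 spans that overlap the region at 173 of these. Of 605 matched genes counted by region, 74 did not reach their region, and 9 were over 100 kb away. Fgfr2, a fibroblast growth factor receptor gene, was named at 4 regions over 2.48 Mb of chromosome 7, up to 2856.2 kb from its RefSeq span. Chd1, a chromatin remodeller gene, was named at regions 1178.8 and 1521.6 kb away. The predicted coding gene Gm20388 was named at 7 regions over 3.74 Mb of chromosome 8. With membership limited to peaks that at least 2 RefSeq spans overlap, the share in all lists was 26.0% (45 of 173 regions).

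At the low end by fold enrichment, the region of Ccnd2, the cyclin D2 gene, with 9330179D12Rik had fold enrichments of 4.06, 3.87 and 4.06, and that of Mettl9, a protein histidine methyltransferase gene, with Gm9905 had 4.31, 3.88 and 3.79. The region of Kpna1, an importin α gene, with Gm15564 (chr16:35981574-35981922) had 4.21, 3.04 and 3.63, though the RefSeq span of Kpna1 lies 1.37 kb away. The −log10 q of this last region was 10.8, 6.33 and 7.92, and ranked by −log10 p its mean percentile was 80.2 in place of 6.79. A low fold enrichment beside a high −log10 q was also seen at Zc3h7a with the miRNA gene Gm23935 (chr16:11143924-11144392), with 5.52, 3.29 and 4.61 at −log10 q of 34.7, 17.5 and 29.2 (mean percentile 34 by fold enrichment and 96.4 by −log10 p). Such a pair of values also marked the widest region, chr9:2999895-3038342, which spans 38448 bp and 10 predicted genes, the most of any region. Its fold enrichments were 4.57, 3.66 and 4.70, and its −log10 q 29.9, 26.7 and 35.5. Of the 10 genes named at this widest region, 0 were matched to RefSeq. The midpoint of the region lies 316112.5 bp from the nearest RefSeq boundary of a protein-coding gene. Of the regions with a −log10 q of 10 or more, 2 of 14 in replicate 1, 4 of 49 in replicate 2 and 4 of 34 in replicate 3 ranked below the median fold enrichment.

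Regions with unusual gene layouts were fewer. Fastkd5, a gene of mitochondrial RNA processing, lies within the span of Ubox5 on the same strand at chr2:130629973-130630828, where fold enrichments were 6.99, 11 and 8.37, and the peak in replicate 1 overlapped 0 genes in the authors' table. Hnrnpf, an RNA-binding protein gene, with the TEC gene 4933440N22Rik on the opposite strand had 6.18, 6.26 and 7.17 over 1300 bp. Ahi1, a ciliary gene, with Gm20149, whose RefSeq span lies 3.42 kb from the region, had 5.30, 12.2 and 8.51, a wider spread than at the regions of Fastkd5 and Hnrnpf. The tail-to-tail pair Dnase2a, a lysosomal DNase gene, and Mast1 had 5.17, 9.37 and 7.43, though the RefSeq span of Dnase2a lies 1.52 kb from the region. The tail-to-tail pair Cp, the ceruloplasmin gene, and Hps3 had 6.23 in replicate 2 and 6.47 in replicate 3, with no peak in replicate 1.

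Mature miRNAs inside regions with a peak in all lists are given with the seed, bases 2 to 8, in capitals, from RefSeq (GRCm38.p6). They are printed because the peak covers the DNA that encodes them, and their seeds differ.
mmu-miR-5130: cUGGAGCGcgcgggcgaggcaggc
mmu-miR-8112: uCUCCGCCaccuccaccgca

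The gene of mmu-miR-5130 shares its region with Kctd12 and the lincRNA gene Gm26778 (chr14:102981750-102983143), where fold enrichments were 4.53, 4.90 and 4.68. That of mmu-miR-8112 shares its region with Krcc1 and Smyd1 (chr6:71271517-71271970), at 4.59, 4.37 and 3.79, and the RefSeq span of Smyd1 lies 9.24 kb away. The sequences show where the peaks lie, and miRNA levels were not measured.

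Over all protein-coding genes of the RefSeq table, 496 of 21896 (2.27%) were at such a region and 1748 (7.98%) at a peak of any kind. Of 35 NK lineage regulators, 2 were at such a region (5.71%), Kmt2a and Lef1, the latter a transcription factor of the Wnt pathway, whose region with the antisense gene Gm43352 had 5.08, 5.96 and 4.94. Of 38 NK effector and receptor genes, 2 were present (5.26%). Klrb1c, which encodes the NK1.1 antigen, shares chr6:128788563-128788960 with the predicted coding gene Gm44511, at 4.53, 6.38 and 4.95. Cd244, the gene of the receptor 2B4, was named with Ly9 at a peak of replicate 2 alone, at 4.32, and its RefSeq span lies 21.9 kb away. At peaks of any kind, 9 of the 35 regulators (25.7%) and 14 of the 38 effector and receptor genes (36.8%) were present. Of 14 AP-1 genes, the family named in the title of the series, 1 was present (7.14%), Jund, at 3.67 in replicate 2 alone (percentile 8.45). At peaks of any kind, 4 AP-1 genes were present (28.6%). Of 5 Ikaros family genes, 0 were present at either.

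Other lists were represented by 1 to 5 genes. Of 40 genes of mitochondrial proteins, 5 were at such a region (Cox15, Hspd1, Hspe1, Polg and Sdhc), with Hspd1 and Hspe1 at the same region, and these 5 were also all that were present at peaks of any kind. Of 35 splicing and RNA processing genes, 5 were present (Cpsf3, Hnrnpk, Hnrnpl, Prpf31 and Srsf7), of which Prpf31, a gene of the tri-snRNP, had 7.52 in replicate 2 and 4.87 in replicate 3. Cpsf3 had a peak in replicate 3 alone, at percentile 3.8. Hnrnpk and Srsf7 had peaks in replicate 2 alone, at percentiles 3.02 and 1.87. Of 53 DNA replication and repair genes, 4 were present (Mre11a, Orc4, Pcna and Xrcc6). Xrcc6 had a peak in replicate 3 alone, at percentile 5.96. Pcna, the gene of the sliding clamp of DNA polymerases, had 3.67 in replicate 2 and 3.71 in replicate 3, near the bottom of both lists. Of 39 chromatin regulators, 4 were present (Chd4, Eed, Gatad2b and Kmt2a). Of 45 genes that host snoRNAs, 1 was present, and of 1106 olfactory receptor genes 1, Olfr56, at a region with Ifi47. The RefSeq span of Olfr56 lies 40.1 kb from that region. In the order given, the shares of these 6 lists at such a region were 12.5%, 14.3%, 7.55%, 10.3%, 2.22% and 0.0904%, against 2.27% of all coding genes. Of the genes counted there, 3, 2, 2, 1, 0 and 1 had a peak in at least 2 lists. At peaks of any kind 5, 8, 7, 12, 5 and 2 genes were present. Those shares were 12.5%, 22.9%, 13.2%, 30.8%, 11.1% and 0.181%, against 7.98% of all coding genes. Most of the lists are short, and nothing about them was tested. The authors marked 25 of the 538 coding genes at the regions as transcription factors (4.65%, 3.03 to 6.78) and 84 of 1324 genes at peaks over 1 protein-coding gene (6.34%, 5.09 to 7.79).

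Promoter windows were searched on both strands for 7 short motifs, and 234 regions were touched by a window of at least 1 of their genes. The window with the start nearest the midpoint was searched over all its bases, so a match can lie outside the region. Regions over 1 protein-coding gene were represented by 614 distinct windows of any RefSeq gene that touched them, so the sets were not chosen alike. GGGAA, the Ikaros core, was found in the windows of 70.1% of the 234 regions, in 68.1% of the 614 windows and in 62.7% of all 32817 windows of the table. The longer TGGGAA, which overlaps GGGAA, was found at 22.2%, 21.0% and 25.6%. CGGAAG, a core of ETS factor sites, was found at 44.4%, 37.5% and 16.9%, and GGGCGG, a core of Sp factor sites, at 79.5%, 83.1% and 35.6%. CCAAT was found at 32.9%, 32.7% and 37.4%. Of the AP-1 and CRE motifs, TGANTCA was found at 2.56%, 3.75% and 7.81%, and TGACGTCA at 3.85%, 2.44% and 1.79%. The median GC content was 65.3%, 66% and 52.7%, in the same order.

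Base composition differed between the sets, so the shares were also taken over windows with a GC content of 60 to 70%, a range chosen after the data were seen. In that range GGGAA was found in the windows of 70.4% (61.2 to 78.6) of 115 regions and in 65.8% (64.6 to 66.9) of 6693 windows of the table. It was found in 68.4% (62.4 to 74) of 263 windows at regions over 1 protein-coding gene. TGGGAA was found at 23.5% of the regions and in 21.8% of the windows of the table. CGGAAG was found in 45.2% (35.9 to 54.8) and 32.5% (31.4 to 33.6), with 39.9% (34.0 to 46.1) of 263 windows at regions over 1 protein-coding gene. GGGCGG was found at 85.2% and 75.3%, and CCAAT at 32.2% and 35.9%. TGANTCA was found at 3.48% (0.956 to 8.67) and 3.96% (3.5 to 4.45). TGACGTCA was found at 2.61% (0.541 to 7.43) and 3.35% (2.93 to 3.81), lower at the regions, where without the GC limit it was higher. The shares at the regions and at those over 1 protein-coding gene had overlapping intervals for each of these motifs. A match of letters is a description and not a measured site, and whether a window is used in NK cells was not measured.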

How the data were processed

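ChIP-seq with an antibody against Ikaros was analysed in 3 wild-type libraries of 6 samples; the 3 knockout samples were not analysed here. The submitters' processing notes name Subread, Picard, SAMtools, MACS2 and the build mm10, without roles or versions used here. Per the labels' protocols, part of the chromatin was set aside as input; which library served as control, and the gene annotation, are not given in the sources used here. Per the file headers, the authors deposited for each peak a fold enrichment (a linear ratio), −log10 values of p and q, a score, a width, and distances to genes with biotypes and a transcription factor mark. Values of different lists were not compared as levels: fold enrichment was ranked to percentiles within each list. Coordinates are those of the files. The depth of the libraries is unknown.

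Rows were grouped by peak name, and genes at distance 0 were counted. Peaks sharing at least 1 bp were merged. Gene spans, starts and strands came from RefSeq tables (GRCm38.p6). Genes were matched by Ensembl identifier, then symbol, then synonym, where exactly 1 gene of the same chromosome fitted. Of the coding genes, 92.4% were matched. The table has strands only for genes with a promoter window, so 185 regions over 2 genes had no arrangement assigned. Differences of medians or shares were tested over the 3 lists by the 2-sided exact sign-flip permutation test. Intervals are Clopper-Pearson at 95%. Merging, selection and the test were checked on simulated data. The regions and gene lists were chosen with earlier results of these data known. Regions named in the text were the 12 highest and 3 lowest by mean percentile in all lists, up to 4 per kind and arrangement in at least 2 lists, those over listed genes, and the one over most genes, with examples of these given and exceptions stated; 1 of the 12 highest is not reported here. Tables were handled with pandas 2.3.3 and NumPy 2.4.6 in Python 3.11.15, intervals came from SciPy 1.17.1, and figures were drawn with matplotlib 3.10.9.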

Additional observations from a re-analysis of the deposited data

How the results depend on the processing

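Alternatives were a −log10 q of at least 5 or 10, an overlap of 50% of the shorter peak and at least 2 protein-coding genes. Others were no predicted or clone-based gene names, no peaks wider than 1000 bp, and ranking by −log10 p or within classes of width. Further ones were gene boundaries within 2 kb, motifs at members in all lists alone, and each list left out. Added after the data were seen were genes whose RefSeq spans overlap the peak and a GC range. Ranked by −log10 p, the mean percentile went from 6.79 to 80.2 for Kpna1 with Gm15564, from 34 to 96.4 for Zc3h7a with Gm23935, from 25.4 to 97 for the region over 10 predicted genes and from 14.9 to 7.99 for Ccnd2, so which regions are lowest depends on the measure. At a −log10 q of at least 5 the width difference was -1.83 bp. At 10 or more, the percentile difference was -21.1, the width difference -20.3 bp and the difference in the share found in both other lists -5.44 percentage points; the cause was not tested. Leaving out 1 list gave percentile differences of -0.446 to 6.23, and shares of regions in both remaining lists of 31.0% to 47.7%, which ask for fewer lists than the 24.2% in all 3. The share near a gene boundary was 84.5% with at least 2 protein-coding genes, 85.6% without predicted names, 83.8% by RefSeq spans and 79.1% within 2 kb. For the other 43 values the mean kept its direction or the share stayed within the reported interval, but single lists could change sign. In replicate 3 the difference in the share found in both other lists was -0.142 with 50% overlap. It was -2.17 there without predicted names and -0.17 without wide peaks, but 0.47 with at least 2 protein-coding genes and 1.58 by RefSeq spans. At a −log10 q of at least 5 it was -1.79 in replicate 2. No test over 3 lists can pass 0.05, so kept directions say nothing of significance. No paired analysis was possible because the knockout samples were not analysed here. Unknown depth, and list lengths of 685, 2084 and 1342 peaks, limit what absence from a list shows.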
